A study of Homo sapiens with 6 samples.

Results

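The genes described here are those that span more than 500 kb of genomic sequence in the HCT116 nascent RNA data. They were chosen by the gene size column of the deposited gene tables, with no use of expression values, and 429 of the 22984 sense rows passed that limit. Not every one of these rows is a long gene. In 140 rows, from 76 multi-copy gene symbols such as NBPF, the size column was not the span of the row itself. A further 20 rows had less than 50% of their size counted, and 7 were much longer in the size column than the RefSeq gene of that name or had no such gene. The remaining 262 single-locus genes are reported below. The shortest were AFF2, CPNE4 and then PPFIA2 (501065 bp, encoding a liprin scaffold). The longest was CNTNAP2 (2304636 bp, encoding a neuronal adhesion protein). Next to the limit, the FAM90A (a multi-copy symbol), DIAPH3 and PGCP rows fell just short at 499789, 498397 and 498224 bp.

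HCT116 is a human colorectal carcinoma cell line. Nascent RNA was labelled with bromouridine for 0.5 h, captured and sequenced (Bru-seq), which measures RNA made within the labelling window and not the amount of stored mRNA. All 6 cultures came from this line and were labelled alike. The 2 vehicle cultures (DMSO 1 and DMSO 2) received 0.01% DMSO for 4 h, and the others received C1-27, which inhibits the omega-class glutathione transferase GSTO1, at 1 μM for 4 h or 24 h, its inactive analogue C1-14 at 10 μM for 4 h, or 10 nM GSTO1 siRNA (siGSTO1) for 24 h. Each treatment was 1 culture, so only the DMSO pair gives a spread. No DMSO culture at 24 h and no control siRNA was analysed here, so effects of time and of transfection cannot be told apart from those of the 24 h treatments.

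RNA polymerase II takes hours to cross a gene of this length, far longer than the labelling window, so the counts of such a gene come from polymerases spread along its body, most of it intron. Very long human genes are known for roles in neurons, muscle and cell adhesion, and many are silent in epithelial cells. Several overlap common fragile sites, regions that tend to break when DNA replication is slowed.

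The CG content of promoters overlapped between transcribed and near-silent members, and 4 promoters are shown to let them be read side by side. The 250 bases before the RefSeq start of each gene are printed 5′ to 3′ on the gene's own strand (GRCh38.p14), with CG pairs in capitals. FAF1 (chr1:50960268-50960517, minus strand) was the most highly transcribed member, ARHGAP24 (chr4:85474900-85475149, plus strand) had the lowest adjusted p of those that rose with siGSTO1, and CNTNAP2 (chr7:146116551-146116800, plus strand) and PTPRD (chr9:10613003-10613252, minus strand) were the 2 longest members.
FAF1: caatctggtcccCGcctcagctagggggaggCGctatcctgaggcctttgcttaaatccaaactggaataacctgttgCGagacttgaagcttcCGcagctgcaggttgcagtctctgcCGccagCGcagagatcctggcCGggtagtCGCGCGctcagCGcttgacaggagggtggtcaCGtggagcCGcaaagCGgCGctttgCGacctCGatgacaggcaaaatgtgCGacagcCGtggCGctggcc
ARHGAP24: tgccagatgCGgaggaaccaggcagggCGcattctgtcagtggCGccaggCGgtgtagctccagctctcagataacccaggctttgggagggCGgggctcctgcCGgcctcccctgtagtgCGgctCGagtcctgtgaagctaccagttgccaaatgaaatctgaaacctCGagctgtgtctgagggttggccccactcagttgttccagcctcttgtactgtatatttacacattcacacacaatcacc
CNTNAP2: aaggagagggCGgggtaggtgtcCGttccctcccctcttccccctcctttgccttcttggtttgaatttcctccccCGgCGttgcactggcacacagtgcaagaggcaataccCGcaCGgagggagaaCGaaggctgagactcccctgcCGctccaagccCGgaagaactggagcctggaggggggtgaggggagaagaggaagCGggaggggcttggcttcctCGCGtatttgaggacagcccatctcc
PTPRD: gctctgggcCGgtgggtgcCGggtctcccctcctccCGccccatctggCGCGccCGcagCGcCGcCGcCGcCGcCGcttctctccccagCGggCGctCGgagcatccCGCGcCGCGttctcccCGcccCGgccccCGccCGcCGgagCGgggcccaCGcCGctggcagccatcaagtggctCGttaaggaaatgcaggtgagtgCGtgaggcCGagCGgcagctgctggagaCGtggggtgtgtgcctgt
These windows held 20 CG pairs in FAF1, 9 in ARHGAP24, 12 in CNTNAP2 and 32 in PTPRD. PTPRD, with the most CG pairs of the 4, had a mean DMSO level of 0.0000773 RPKM (reads per kilobase of gene and per 1000000 reads of the library), against 2.43 RPKM for FAF1. The motif searched was CG, which reads the same on both strands. Over the 218 members with a RefSeq window the median was 16 CG pairs, and 66.5% held at least 10, beside a median of 11 and 51.9% in all 27305 RefSeq promoters, and a median of 18 and 69.4% in the 15366 promoters of genes in the deposited tables. In the 21 windows of members above 0.5 RPKM the median was 20, with quartiles of 13 and 34. In the 135 windows of members above 0 and up to 0.01 RPKM it was 15, with quartiles of 7 and 25, so the ranges overlapped.

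Sense gene counts totalled 18112861 in DMSO 1 and 32906297 in DMSO 2, and ran from 20214413 to 36841146 in the treated libraries. GSTO1, the siRNA target, stood at 3.51 and 3.72 RPKM in DMSO and at 2.70 RPKM with siGSTO1, a ratio of 0.748 to the DMSO mean that did not pass the test (edgeR adjusted p = 0.314). This nascent level does not measure the stored mRNA or protein left after the siRNA. The study checked GSTO1 knockdown on protein, by fluorescent labelling and western blotting, at later times. Of 9 colorectal epithelial markers, 4 were above 0.5 RPKM in every library, while VIL1 and LGALS4 were at or near 0. Leukocyte markers summed to at most 0.0507 RPKM, fibroblast markers to 0.0615 to 0.315 and endothelial markers to 0.174 to 0.377. Of 4 neuronal markers, SYT1, itself a member, was above 0.5 RPKM in every library, and GAD1 ranged from 0.342 to 0.554 RPKM. SNAP25 stayed at or below 0.0301 RPKM and RBFOX3 at or below 0.000872 RPKM.

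Few of the very long genes were transcribed in HCT116. With a mean DMSO level above 0.5 RPKM as the limit, 27 of 262 (10.3%) counted as transcribed, beside 29.9% of genes of 200 to 500 kb and 46.7% of genes of 50 to 100 kb. At a limit of 0.1 RPKM the shares were 24.4%, 50.3% and 65.0%. Among genes that passed 0.5 RPKM, the median was 0.996 RPKM in members and 1.01 RPKM at 200 to 500 kb. Both medians leave out every gene below the same limit, so they do not show that levels were alike. The highest level was 2.43 RPKM in members and 9.15 RPKM at 200 to 500 kb. Over all genes of each class the medians were 0.00189 and 0.104 RPKM. Of the others, 37 lay between 0.1 and 0.5 RPKM, 32 between 0.01 and 0.1, 163 above 0 and up to 0.01, and 3 had no counts in either DMSO culture. Together the 262 genes held 3.21% of sense counts in DMSO 1, 3.53% in DMSO 2 and 3.89% with siGSTO1, with 3.22% to 3.49% in the other libraries.

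**Figure D1:**
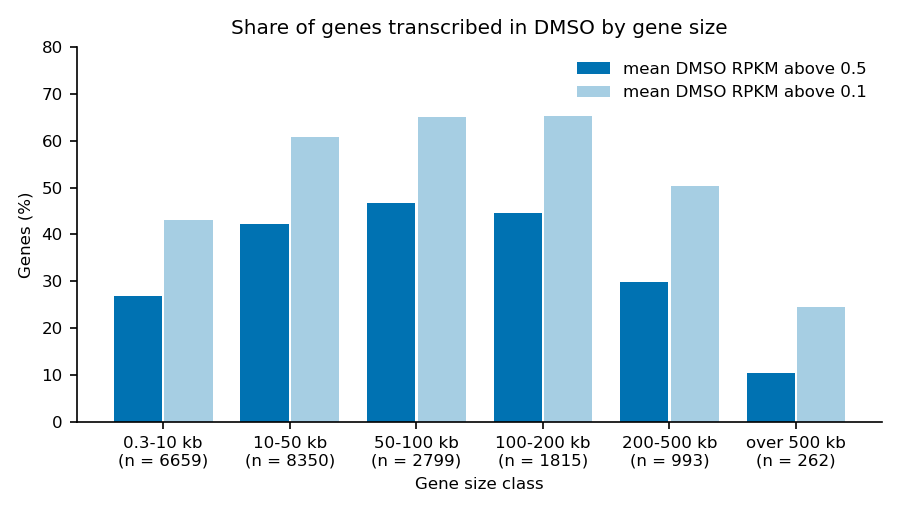
Bars give the share of genes in each size class (x axis, in kb, with the number of genes) whose mean RPKM over both DMSO cultures was above 0.5 (dark) or above 0.1 (light). The share above 0.5 was 46.7% at 50 to 100 kb and 10.3% over 500 kb.

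Length gave these genes many counts even at modest levels. The 27 transcribed members had a median of 12040 counts in DMSO 1 and 22880 in DMSO 2, with at least 6304 in either. Reads were strand-specific, and the antisense row gave a measure of background. Sense exceeded antisense more than 10-fold in 26 of 26 transcribed members with an antisense row, whose median antisense level was 0.00086 RPKM. In the tier up to 0.01 RPKM, sense exceeded antisense in 99 of 155, and by over 10-fold in 38, so values there lie close to what the antisense strand gave.

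The most highly transcribed members had varied functions. FAF1 (chr1:50906935-51425936 in hg19, the build of the deposited tables), which encodes a FAS-associated ubiquitin-binding factor, led with 2.23 and 2.63 RPKM in the DMSO cultures (mean 2.43 ± 0.287, SD, n = 2). Its lowest value was 2.00 with siGSTO1 and its highest 2.64 with C1-27 at 4 h. ADK (chr10:75910943-76469061), which encodes adenosine kinase, stood at 1.74 RPKM in DMSO 1 (mean 1.95 ± 0.294), and like FAF1 it was lowest with siGSTO1, at 0.770 of the DMSO mean. Below them came ZBTB20, which encodes a zinc-finger repressor (1.70 ± 0.470 RPKM), LRBA, which encodes a vesicle-trafficking protein (1.68 ± 0.125), GPHN, which encodes gephyrin and acts in molybdenum cofactor synthesis (1.66 ± 0.0840), and SYT1, which encodes the calcium sensor synaptotagmin (1.51 ± 0.260). From ADK down to SYT1 the DMSO ranges of neighbours overlapped, whereas that of FAF1 lay wholly above that of ADK.

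The other transcribed members fell into a few kinds of function. Adhesion and polarity genes included LPP, a focal adhesion protein gene (1.32 ± 0.397 RPKM), PARD3, a polarity scaffold gene (1.17 ± 0.0238), and PTPRK, a receptor phosphatase gene (0.799 ± 0.0506). Membrane traffic was represented by VPS13B (1.16 ± 0.149), AGAP1 (1.14 ± 0.137), ERC1 (1.05 ± 0.0856), SBF2 (0.996 ± 0.0831), DENND1A (0.805), EXOC4 (0.662 ± 0.0411) and TRAPPC9 (0.508 ± 0.0915). Signalling enzymes included INPP4B, a phosphoinositide phosphatase (0.997 ± 0.423), and the protein kinase C genes PRKCA (0.602 ± 0.101) and PRKCE (0.565 ± 0.0690). CDKAL1, which encodes a tRNA-modifying enzyme, stood at 1.15 ± 0.0960 RPKM, and FARS2, the mitochondrial phenylalanyl-tRNA synthetase gene, at 0.563 ± 0.0485. The remaining members above the limit were DOCK1, a Rac exchange factor gene (0.773 ± 0.0755), MAGI1, a junction scaffold gene (0.703 ± 0.165), EXOC6B, an exocyst gene (0.564 ± 0.0533), and TBC1D5 and RABGAP1L, genes of Rab GTPase-activating proteins (0.766 and 0.608). The narrowest range over all 6 libraries was in LOC647946, a locus with a noncoding name, whose highest library (0.549 RPKM) was 1.07-fold its lowest (0.511 RPKM). The widest was in INPP4B, at 2.22-fold.

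**Figure D2:**
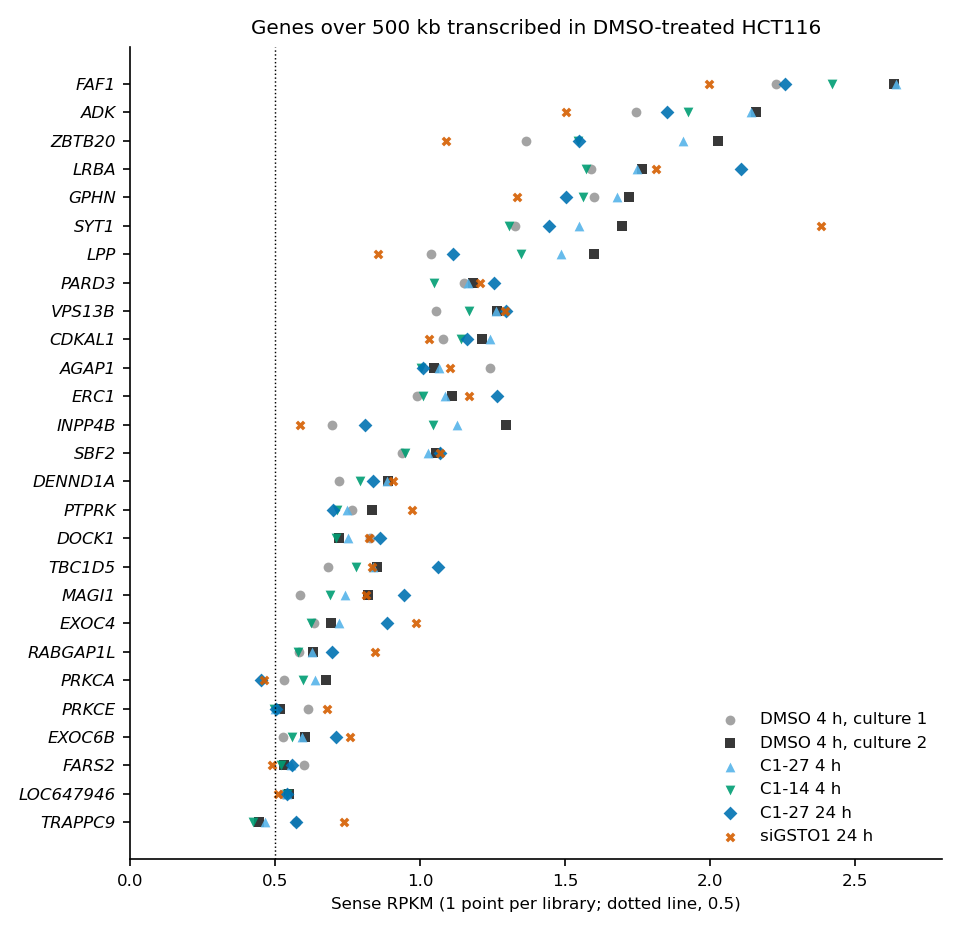
Each row is 1 of the 27 members with a mean DMSO RPKM above 0.5, and each point is the sense RPKM (x axis) of 1 library. For 8 members the siGSTO1 library was the highest and for 9 the lowest, whereas C1-27 at 4 h was the highest for 2 and the lowest for none.

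Grouped by function, transcription was uneven. A gene may stand in more than 1 of the lists below. Of 37 signalling enzymes and scaffolds, 8 were above 0.5 RPKM and 11 above 0.1. Of 46 cell adhesion and axon guidance genes, PTPRK alone was above 0.5 and 4 were above 0.1, and the list's median was 0.000187 RPKM against 0.00189 for all members. Of 17 ion channel and neurotransmitter receptor genes, none was above 0.5 and GRID1, a glutamate receptor gene (0.112 RPKM), alone was above 0.1. Of 23 common fragile site genes, none was above 0.5 and 3 were above 0.1. These were IMMP2L, a mitochondrial peptidase gene (0.487 RPKM), IL1RAPL1, a synaptic adhesion gene (0.222), and FHIT, a diadenosine hydrolase gene (0.177). Of 21 genes listed as transcription and RNA regulators, 2 were above 0.5, ZBTB20 and TBC1D5, and 6 above 0.1. TBC1D5 encodes a Rab GTPase-activating protein and is no such regulator. Of 14 cytoskeletal genes, none was above 0.5 and 3 were above 0.1.

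The 5 longest members were all near silent. CNTNAP2 (chr7:145813453-148118088) had 24 and 34 counts in DMSO, 63 with siGSTO1 and 36 to 41 in the other treated libraries. PTPRD, which encodes a receptor phosphatase, had 2 and 11 counts in DMSO 39 with C1-27 at 4 h and 2 to 22 in the other libraries. DMD, the dystrophin gene, stood at 0.0000675 RPKM in DMSO, and CSMD1 was likewise near 0, with no counts in the siGSTO1 library. DLG2, which encodes a synaptic scaffold, was the highest of the 5 at 0.00528 ± 0.000466 RPKM.

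The 2 DMSO cultures differed in a way that moved with gene length. Among transcribed members, 3 of 27 (11.1%) were at least 1.4-fold higher in DMSO 2 and none lower, while over all genes above 0.5 RPKM 2.84% were higher and 16.3% lower. The median log2 ratio of DMSO 2 over DMSO 1 was 0.17 in members and -0.08 over all 7825 genes. It stood at -0.32 in genes of 0.3 to 10 kb, -0.10 at 10 to 50 kb, 0.06 at 50 to 100 kb, 0.10 at 100 to 200 kb and 0.11 at 200 to 500 kb. The gap of 0.25 between members and all genes was the same under the deposited scaling, TMM and DESeq2 size factors. The members that differed were INPP4B (0.697 and 1.30 RPKM), LPP (1.04 and 1.60) and ZBTB20 (1.36 and 2.03), all higher in DMSO 2. At a mean RPKM above 0.1, 9 of 64 members were higher and 0 lower (4.13% and 21.6% of all genes). This pair has no replicate, so the difference has no test.

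**Figure D3:**
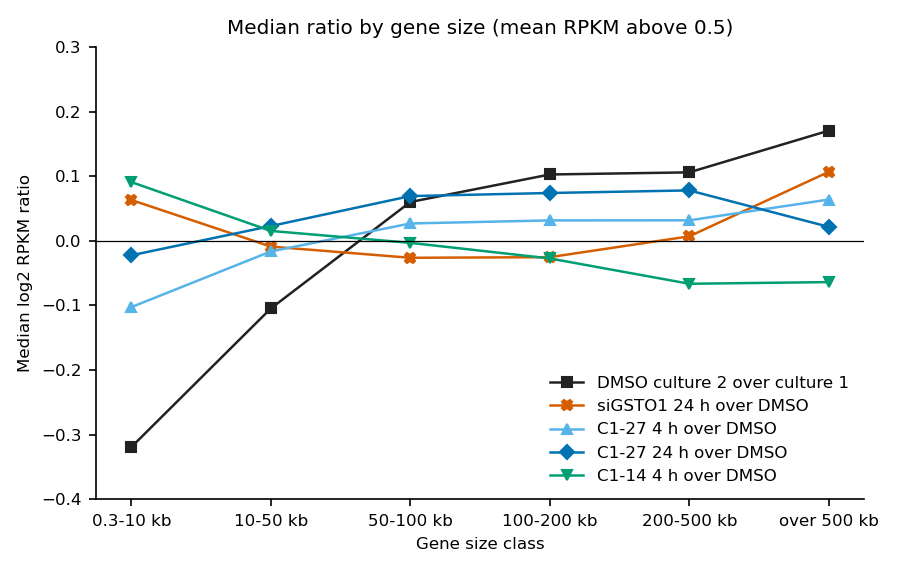
Lines give the median log2 RPKM ratio (y axis) in each gene size class (x axis) for genes with a mean RPKM above 0.5, for DMSO 2 over DMSO 1 and for each treatment over the DMSO mean. The DMSO line runs from -0.32 in the shortest class to 0.17 over 500 kb, and no treatment line leaves the band from -0.10 to 0.11.

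Larger differences between the vehicle cultures were found among weakly transcribed members. Of 129 members with at least 100 counts over both cultures, 12 (9.3%) were at least 2-fold higher in DMSO 2, against 0.768% of all genes, and MACROD2 alone was at least 2-fold lower (2.44% of all genes). SOX5, which encodes an SRY-box transcription factor, had 6 counts in DMSO 1 and 180 in DMSO 2, a ratio of 17.2 (95% exact counting interval 7.75 to 47.5). LRP1B, which encodes a giant lipoprotein receptor, had 1057 and 10573 counts, or 0.0238 and 0.136 RPKM, and the 4 treated libraries stood between 0.0999 and 0.125 RPKM. For LRP1B it was DMSO 1 that lay apart. ROBO1, the SLIT receptor gene, and SDK1, a synaptic adhesion gene, differed 6.59-fold and 4.31-fold. For these 13 genes, both 4 h compound libraries were nearer to DMSO 2 in 13 of 13, C1-27 at 24 h was nearer to DMSO 1 in 9, and siGSTO1 was nearer to DMSO 1 in 6, to DMSO 2 in 6, and had no counts for SOX5. These ratios set by the DMSO pair are a description, and counting intervals here and below cover counting error only.

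With siGSTO1, transcribed members lay on both sides of DMSO. Of 30 members with a mean RPKM above 0.5, 4 (13.3%) were at least 1.4-fold higher than the DMSO mean and 3 (10.0%) at least 1.4-fold lower, beside 10.5% and 6.48% of all 8138 genes. The median log2 ratio was 0.11 against -0.0007 over all genes. Scaling moved both: under TMM they were -0.01 and -0.12, under DESeq2 size factors -0.05 and -0.15, with members 0.11 above all genes each time, and the split became 2 higher and 5 lower under either. With the limit lowered to a mean RPKM of 0.1, 23 of 71 members (32.4%) were higher and 4 (5.63%) lower, beside 20.4% and 6.44% of all genes. That mean takes in the treated library, so members can pass because siGSTO1 is high. At 0.5 RPKM 30 passed, beside 27 by DMSO alone, and at 0.1 RPKM 71, beside 64. PTPRG, at a DMSO mean of 0.436 RPKM, passed 0.5 only through its siGSTO1 level. The shares of all genes used the same filter, and how much it adds to the counts was not tested.

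PTPRG, a receptor phosphatase gene (chr3:61547243-62280573), stood at 0.451 and 0.421 RPKM in DMSO and 0.748 with siGSTO1, 1.71-fold the DMSO mean. The other libraries ranged from 0.389 to 0.478 RPKM, so siGSTO1 was above all of them. SYT1 (chr12:79257773-79845788) stood at 1.33 and 1.70 RPKM in DMSO, at 2.38 with siGSTO1 and between 1.31 and 1.55 in the other libraries. EXOC4, an exocyst subunit gene, reached 0.985 RPKM from 0.633 and 0.692. TRAPPC9, a trafficking complex gene, was 1.45-fold the DMSO mean but 1.29-fold DMSO 1. None of the 4 passed the test (edgeR adjusted p of 0.149 to 0.504). Beside SYT1, the other neuronal markers stood at 0.000872 (RBFOX3), 0.0301 (SNAP25) and 0.554 RPKM (GAD1) with siGSTO1. Each was above every other library, whose highest values were 0.000498, 0.00724 and 0.421 RPKM, and RBFOX3 was near 0. Some markers of other types were also highest with siGSTO1, such as COL1A1 (fibroblast, 0.3128 RPKM), CLDN4 and CDH1 (epithelial, 1.503 and 0.6171 RPKM). Their highest values in the other libraries were 0.1467, 0.7991 and 0.4506 RPKM. EPCAM, KRT8, KRT18, KRT19 and PECAM1 were instead higher in DMSO 1 than with siGSTO1. The part of these markers in the results was not tested.
The 3 that were lower were ZBTB20, LPP and INPP4B, the same genes that differed between the DMSO cultures. Against DMSO 1 alone, siGSTO1 gave ratios of 0.799, 0.826 and 0.839, and against DMSO 2 alone 0.537, 0.535 and 0.451. With DMSO 1 as the only control no transcribed member was 1.4-fold lower, and with DMSO 2 as the only control 5 were.

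The calls for siGSTO1 lay among weakly transcribed members instead. edgeR tested 190 of the 262 genes, and those tested had at least 10 counts in 2 or more libraries. It called 35 members (18.4%) higher and 5 (2.63%) lower, beside 3.69% and 1.21% of all 14431 genes, 13.8% and 2.38% of genes of 200 to 500 kb, and 1.2% and 0.475% of genes of 0.3 to 10 kb. None of the 27 members above 0.5 RPKM was called. Their edgeR SE ran from 0.263 (PRKCE) to 0.373 (ZBTB20). In called members between 0.1 and 0.5 RPKM it ran from 0.237 (KSR2) to 0.264 (SCHIP1), so an equal fold was harder to call above 0.5 RPKM. INPP4B, at a log2 fold change of -0.89, was not called, while PLCB1, at 0.76, was. Of those called higher, 6 lay between 0.1 and 0.5 RPKM, 16 of 32 between 0.01 and 0.1, and 13 below. All 35 were more than 1.4-fold above each DMSO culture, with ratios to the DMSO mean from 1.83 to 13.3 and a median of 2.77. The spread in this fit comes from the DMSO pair alone, with 1 residual degree of freedom. DESeq2 called 14 members higher and 2 lower, and its share of all genes was not taken. The median mean count was 423 in tested members, 2721 in tested genes of 200 to 500 kb, 2588 at 100 to 200 kb (7.68% called higher), 495 at 10 to 50 kb (2.17%) and 96.4 at 0.3 to 10 kb.

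**Figure D4:**
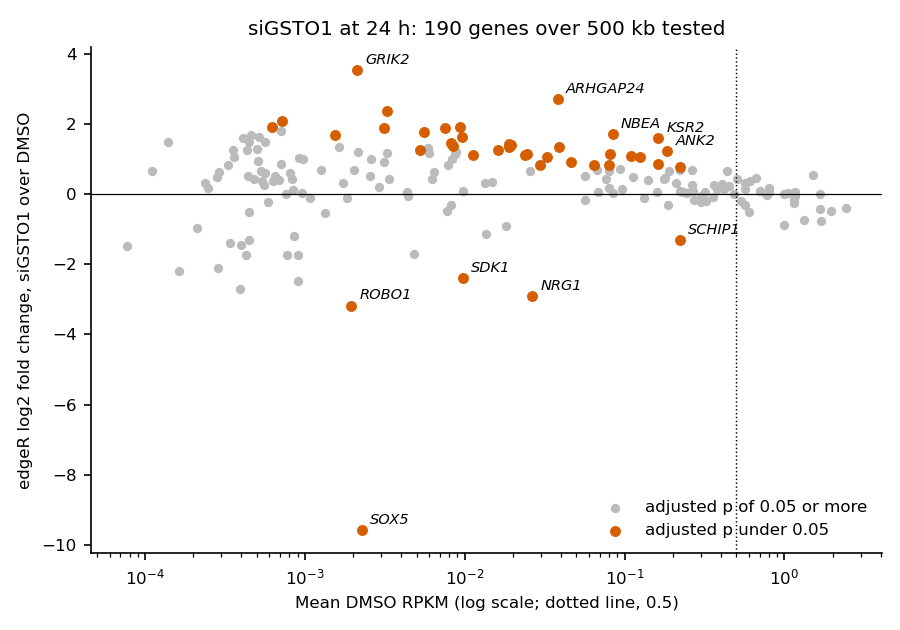
Each point is 1 of the 190 tested members, by mean DMSO RPKM (x axis, log scale) and edgeR log2 fold change of siGSTO1 over DMSO (y axis), with orange for an adjusted p under 0.05. All orange points lie left of 0.5 RPKM, and the fitted value of SOX5 is no measure of size because its siGSTO1 library had 0 counts.

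ARHGAP24 (chr4, with its promoter above) had 592 and 610 counts in DMSO, 3658 with siGSTO1 and 482 to 794 in the other libraries. This was 6.92-fold the DMSO mean in RPKM (log2 fold change 2.70 ± 0.26 SE, edgeR adjusted p = 1.9e-21). GRIK2, which encodes a kainate-type glutamate receptor subunit, had 24 and 75 counts in DMSO, 501 with siGSTO1 and 68 to 106 elsewhere. Its ratio of 13.3 was the highest among the calls (log2 fold change 3.53 ± 0.46, edgeR adjusted p = 1.21e-11). In both genes the siGSTO1 library was above every other library.

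NBEA, which encodes a membrane-trafficking scaffold, had 1489 and 2418 counts in DMSO and 5679 with siGSTO1, a ratio of 3.52. KSR2, which encodes a scaffold of the MAP kinase pathway, had 2115 and 3132 counts in DMSO and 7158 with siGSTO1, a ratio of 3.26, and reached 0.529 RPKM. Both were also higher at 24 h of C1-27, with ratios of 1.65 and 1.59 that did not pass the test (edgeR adjusted p = 0.457 and 0.643). The 24 h libraries were thus the highest for both genes, and time and treatment cannot be told apart there.

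The function lists are described by their counts, with no test between them, beside the 35 of 190 members (18.4%) called higher overall. Of 11 cytoskeletal genes tested, 5 rose and 0 fell. Those that rose were ANK2, the ankyrin-B gene (ratio 2.55), KIAA1217 (2.74), KIF26B, a kinesin family gene (2.96), SYNE1, which encodes a nuclear envelope linker (2.42), and NAV2 (2.06). Of 30 signalling genes tested, 8 rose and NRG1 fell; those that rose included PRKG1, a cyclic GMP-dependent kinase gene (2.64), KALRN (2.89), MAST4 (3.94) and PLCB1, a phospholipase C gene (1.83). Of 20 fragile site genes tested, 4 rose (NBEA, DLG2, DPYD and NAALADL2) and SDK1 fell. DPYD encodes the enzyme that breaks down pyrimidines and 5-fluorouracil, and its counts were 1073 and 2588 in DMSO and 2772 with siGSTO1 (ratio 1.93). Of 23 adhesion genes tested, NLGN1 rose and SDK1 and ROBO1 fell, of 13 channel and receptor genes GRIK2 rose, and of 16 transcription and RNA regulators FOXP2 rose (2.77) and SOX5 fell. Of 4 genes with noncoding names, LOC100616530 rose (2.96). Of the 84 tested that stood in no list, 15 rose and SCHIP1 fell. Besides KSR2, those that rose included PPFIA2 with 24 and 91 counts in DMSO and 257 with siGSTO1 (ratio 6.01), SLC9A9, a sodium-proton exchanger gene (3.71), RIMS2, a gene of the synaptic active zone (3.41), GPR98, an adhesion receptor gene (2.40), DNM3, a dynamin gene (2.30), and RGS6 (2.26). In all of these the siGSTO1 library had the highest RPKM, and RGS6 followed it closely with C1-27 at 24 h (0.283 and 0.235 RPKM). The median log2 fold change was 0.91 in the cytoskeletal list, 0.67 in the fragile site list and 0.41 over all 190 members. It was 0.66 in channel and receptor genes, 0.55 in those with noncoding names and 0.37 in adhesion genes. In signalling genes it was 0.32, in transcription and RNA regulators 0.19 and in genes of no list 0.33.

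Summed over genes, reads from weakly transcribed members were more numerous with siGSTO1. Members above 0 and up to 0.01 RPKM in DMSO drew 404 reads per 1000000 library reads with siGSTO1 and 183 to 227 in each other library. Members of 0.01 to 0.1 RPKM drew 2245 reads per 1000000, against 1155 to 1393. Antisense reads were summed over all 262 genes together, and came to 800 reads per 1000000 with siGSTO1 and 703 to 817 elsewhere. ASTN2 weighs on this sum, with an antisense level of 0.146 to 0.181 RPKM over the libraries. No antisense sum was made for the weakly transcribed members alone, so a change of background there was not tested. Over all genes, antisense rows held 3.47% of counts with siGSTO1 and 2.85% to 3.96% in the other libraries.

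Of the 5 members that fell with siGSTO1, NRG1 and SCHIP1 were well below both DMSO cultures. NRG1, which encodes the ERBB receptor ligand neuregulin, had 544 and 1487 counts in DMSO, 114 with siGSTO1 and 907 to 1265 in the other libraries (ratio 0.145, edgeR adjusted p = 1.21e-11). SCHIP1 had 2752 and 6492 counts in DMSO and 1582 with siGSTO1 (ratio 0.435, edgeR adjusted p = 7.86e-05). The other 3 were genes in which the DMSO cultures themselves were far apart. SDK1 had 83 and 624 counts in DMSO and 54 with siGSTO1, which is 0.580 of DMSO 1 and 0.134 of DMSO 2 in RPKM. ROBO1 had 14 and 161 counts in DMSO and 8 with siGSTO1. SOX5 had no counts with siGSTO1, at least 25.4-fold lower than both DMSO libraries together with a floor of 3 counts in the library, but DMSO 1 held 6 of their 186 counts.

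**Figure D5:**
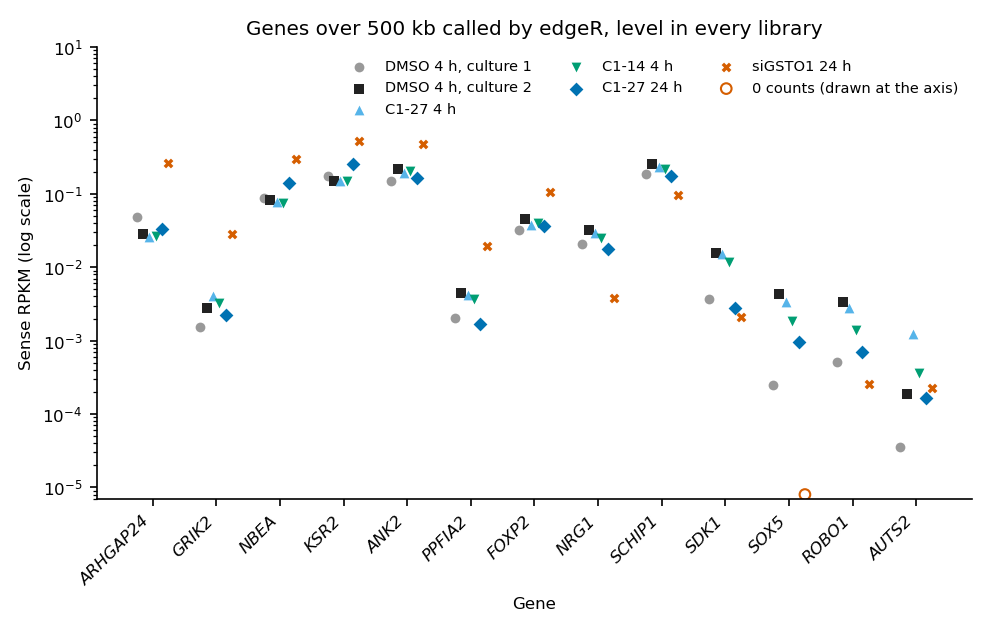
Points give the sense RPKM (y axis, log scale) of 13 called members (x axis) in each library; the open circle marks 0 counts. In ARHGAP24, GRIK2 and PPFIA2 the siGSTO1 library lies above all others, whereas in SDK1, SOX5 and ROBO1 the DMSO cultures differ 4.31-fold to 17.2-fold.

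With the compounds, no transcribed member was past 1.4-fold of the DMSO mean, and few genes of the next class were. With 1 μM C1-27 for 4 h, none of 26 was past 1.4-fold in either direction (0.457% of all genes were higher and 2.22% lower), and the median log2 ratio was 0.06 against -0.01 over all genes. With 10 μM C1-14 for 4 h, none of 26 was (3.71% and 1.01% of all genes), with medians of -0.06 and 0.0065. With C1-27 for 24 h, none of 27 was (3.23% and 3.49%), with medians of 0.02 and 0.03. Among genes of 200 to 500 kb, C1-27 at 4 h had 1 higher and 0 lower of 296. For C1-14 the counts were 2 and 0 of 291, and for C1-27 at 24 h 7 and 7 of 307. The lack of changes was thus not particular to members. Taking 1 or the other DMSO culture alone as the control reversed the sign of each member median, as TMM and DESeq2 scaling did for C1-27 at 24 h (-0.03 and -0.05). With a mean RPKM above 0.1, C1-27 at 4 h had 1 of 65 higher and 0 lower (1.04% and 5.93% of all genes), C1-14 had 0 and 0 of 64 (4.25% and 3.12%) and C1-27 at 24 h had 5 and 1 of 65 (7.13% and 5.0%). Between 0.1 and 0.5 RPKM, RGS6, a G protein regulator gene, was 1.88-fold the DMSO mean at 24 h (edgeR adjusted p = 0.0776). As the doses of C1-27 and C1-14 differed, the compounds are set side by side and were not tested against each other.

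In the edgeR test, C1-27 at 4 h raised 1 of 190 members (0.0208% of all genes higher and 0.0% lower). This was AUTS2, a neurodevelopmental regulator gene, with 1 and 9 counts in DMSO, 56 with C1-27 at 4 h, 15 with C1-14, 9 with C1-27 at 24 h and 7 with siGSTO1. Its count ratio to both DMSO libraries was 9.29 (95% exact counting interval 4.70 to 20.4, edgeR adjusted p = 0.0101), at 56 counts over more than 1 Mb of gene, and DESeq2 did not call it. C1-27 at 24 h lowered SDK1 alone (0.166% of all genes lower, 0.194% higher), to 124 counts and 0.286 of the DMSO mean (edgeR adjusted p = 0.00885). Against DMSO 1 alone the ratio was 0.759, so the call rests on DMSO 2. edgeR called no member with C1-14 (0.132% of all genes higher and 0.00693% lower), nor did DESeq2, and 6 members had an unadjusted p under 0.05.

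The position of the treated libraries between the DMSO cultures also differed. C1-27 at 4 h was nearer to DMSO 2 than to DMSO 1 in 25 of 27 transcribed members, and in 77.9% of all genes. C1-14 was nearer to DMSO 2 in 10 of 27 members and in 64.9% of all genes, but in 36 of 64 members (56.2%) above 0.1 RPKM. For siGSTO1 and C1-27 at 24 h the counts were 15 and 16 of 27, beside 43.1% and 58.2% of all genes. With C1-27 at 4 h, the median distance to DMSO 2 was 0.03 on the log2 scale and that to DMSO 1 was 0.22.

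Between the 2 C1-27 times, which share a dose, 1 transcribed member was past 1.4-fold. Of 26, none was 1.4-fold higher at 24 h (5.16% of all genes) and PRKCA alone was lower (1.61%), at 0.451 RPKM and 0.708 of its 4 h level. Above 0.1 RPKM, 5 of 66 were higher and 2 lower (12.3% and 2.33% of all genes). The edgeR contrast called 3 of 190 lower at 24 h and none higher (0.0832% and 0.0416% of all genes), and the 3 were SDK1, AUTS2 and ODZ4, a teneurin adhesion gene.
Of the treatments at 24 h, siGSTO1 exceeded C1-27 by at least 1.4-fold in SYT1 and PTPRG among 29 members (8.73% of all genes) and was lower in ZBTB20 (4.6%). PTPRG, at 0.478 RPKM with C1-27 at 24 h, passed the limit only through its siGSTO1 level of 0.748 RPKM. Above 0.1 RPKM, 18 of 72 were higher and 2 lower (16.2% and 5.01% of all genes). Members can pass that limit through siGSTO1 in the same way, and how much this adds was not tested. The edgeR contrast called 25 of 190 members higher with siGSTO1 and 2 lower (1.18% and 0.243% of all genes). The 25 included CDH4 and NEGR1, in which the siGSTO1 level was 1.08 and 0.648 of that in DMSO 1. ARHGAP24 was 8.07-fold and GRIK2 12.9-fold the C1-27 level. The 2 lower were NRG1 (ratio 0.220) and LARGE, a glycosyltransferase gene (0.282), and LARGE stood at 0.00555 RPKM in DMSO 1 and 0.0217 in DMSO 2.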

How the data were processed

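Bru-seq libraries of HCT116 cells were analysed from the deposited gene tables. According to the submitters' processing notes, the authors used CASAVA 1.8.2, Bowtie 0.12.8, TopHat 1.4.1 and bedtools 2.16.2 with hg19; the counting rule is not given in the sources used here. Each deposited table gives an expected count per gene and strand, not always whole, with reads counted over introns and exons, the count per base as a signal, and RPKM made by the authors; the RPKM implied 23388425 to 46017051 reads per library. No deposited value was altered, except that counts were rounded for count models.

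The rule kept sense rows over 500 kb, from which multi-copy rows, rows with under 50% of their size counted and rows at odds with RefSeq lengths were removed. RPKM ratios to the DMSO mean used a 1.4-fold limit, genes over 300 bp and a mean RPKM above 0.5. These limits are those of the study, which does not say how its DMSO cultures were combined. The mean RPKM was taken over both sides of each comparison. For siGSTO1 the study reported more genes lower than higher, whereas here 852 of 8138 genes were higher and 527 lower. The reason for this difference was not tested. edgeR 4.0.16 (R 4.3.3) fitted all 6 libraries in 5 groups by quasi-likelihood with TMM. It used 14431 genes with at least 10 counts in 2 libraries (common dispersion 0.0381), with Benjamini-Hochberg adjustment over all of them at 0.05. The fit was also run on simulated counts with that dispersion. These held no difference between the DMSO cultures by gene length, so the run does not cover that feature of the data. DESeq2 1.42.0 and other scalings, filters and controls were alternatives. Adjusted p-values therefore measure spread between 2 cultures, which may be technical, and bulk RNA cannot tell fewer cells of a kind from less RNA per cell. Of the members, 49 shared bases with another row on their strand, 2 of them over 5% of their size.

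Genes were named by rule: the 15 highest in DMSO, the 5 longest, those with the largest folds or lowest adjusted p, the 3 with the widest DMSO difference, list leaders and genes next to 500 kb. CDH4, LRP1B, LARGE, RGS6, PRKCA, TRAPPC9 and list members beyond these were named after their values were seen. Members and lists were chosen with earlier results of these data known. Antisense rows served as background only.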

Additional observations from a re-analysis of the deposited data

Results flagged for a closer look

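In 3 weakly transcribed members the level after C1-27 differed between 4 h and 24 h at the same 1 μM dose, by the edgeR contrast of the 2 cultures. Each time is 1 culture, and the spread comes from the DMSO pair. SDK1 had 561 counts at 4 h and 124 at 24 h, a log2 fold change of -2.51 (edgeR adjusted p = 0.000593), with 83 and 624 counts in DMSO. ODZ4 had 34 and 2 counts, a log2 fold change of -4.31 (edgeR adjusted p = 0.00788), and the count ratio was 0.0495 with a 95% exact counting interval of 0.00576 to 0.193. AUTS2 had 56 and 9 counts, a log2 fold change of -2.94 (edgeR adjusted p = 0.0297), and a count ratio of 0.135 (0.0587 to 0.275). For SDK1 the level at 24 h was 0.00279 RPKM, beside 0.00367 in DMSO 1 and 0.0158 in DMSO 2. One of the 3 calls was left under the older edgeR quasi-dispersion, and 1 with no filter on low counts.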

How the results depend on the processing

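No paired analysis was possible because each treatment is 1 culture and the DMSO cultures alone carry replicate numbers. Leaving out a DMSO culture leaves edgeR no residual degree of freedom, so that was run for folds only.

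For siGSTO1 the counts of members 1.4-fold lower ranged from 0 (without DMSO replicate 2) to 5 (without DMSO replicate 1). Under TMM or DESeq2 rescaling 2 were higher and 5 lower, and with no same-strand overlap 1 was lower. With 1 DMSO culture as control, C1-27 at 4 h gave up to 2 higher, C1-27 at 24 h up to 2 higher and 3 lower, and C1-14 up to 1 higher; DESeq2 rescaling gave C1-27 at 24 h 1 lower. With a mean DMSO RPKM above 0.1, 64 members counted as transcribed. At a mean of both sides above 0.1, siGSTO1 gave 23 of 71 higher and C1-27 at 4 h 1 of 65 higher. C1-27 at 24 h then gave 5 higher and 1 lower of 65, and DMSO 2 over DMSO 1 9 of 64 higher. With no RPKM filter siGSTO1 gave 120 higher and 36 lower of 245 members, and C1-27 at 4 h 82 and 27 of 255. C1-27 at 24 h gave 49 and 59 of 253, and C1-14 41 and 33 of 242. In DMSO, 163 members lay above 0 and up to 0.01 RPKM, so many of these ratios rest on few counts. For genes over 300 kb siGSTO1 gave 14 higher and 19 lower of 144. C1-27 at 4 h gave 1 higher of 131, and C1-27 at 24 h 1 higher and 4 lower of 135. Shares of all genes were taken for the main settings and the 0.1 RPKM limit only, so the other counts here describe members alone. All rows by the size rule, an alternative added after seeing the data, gave C1-14 1 higher.

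edgeR calls for siGSTO1 fell to 14 higher and 2 lower under DESeq2 and were 93 and 14 over 300 kb, where C1-27 at 24 h had 1 and 5 and C1-14 1 higher. The C1-27 4 h call was lost (0) with no filter on low counts, under DESeq2 and under the older quasi-dispersion (added after seeing the data). For C1-27 at 24 h, no normalization factors gave 2 higher and 0 lower, DESeq2 0 lower, and a fit of DMSO and the treatment alone or the older quasi-dispersion 2 lower. C1-27 at 24 h over 4 h kept 1 lower call with no filter or the older quasi-dispersion, and siGSTO1 over C1-27 at 24 h had 1 lower with no normalization factors. DESeq2 rescaling took the members' median log2 ratio to -0.046 for siGSTO1 and to 0.29 for DMSO 2 over DMSO 1. Of the counts and medians of the class under alternatives, 145 stayed within 1.5 times the count or within the SD of that median between DMSO cultures (0.121), and 52 moved. The cause of these shifts was not tested. Depth limits members up to 0.01 RPKM, whose median was 5 counts in DMSO 1.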

Other observations

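CDH4 and NEGR1, 2 adhesion genes chosen after their values were seen, were near 0 in 4 libraries and not in the other 2. CDH4, a cadherin gene, had 52 counts in DMSO 1 and 63 with siGSTO1, but 1 in DMSO 2, 5 with C1-27 at 4 h, 3 with C1-27 at 24 h and 3 with C1-14. NEGR1, a neuronal growth regulator gene, had 22 counts in DMSO 1 and 16 with siGSTO1, but 0 to 2 in the others. For CDH4 the ratio of DMSO 2 to DMSO 1 was 0.0110 with a 95% exact counting interval of 0.000274 to 0.0642. Neither library pair is given a shared origin by the labels, and which step set these 2 libraries apart was not tested.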
